A study of Mus musculus with 12 samples.

Results

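The Igkv genes are the variable segments of the mouse immunoglobulin kappa light chain. They were taken as the rows of the deposited count table whose Ensembl identifier is annotated as a functional variable gene (IG_V_gene) with a symbol starting in Igkv, and with at least 10 counts over 12 libraries. All 100 annotated genes of this kind met that minimum, out of 53715 gene rows, and the least counted of them had 23 counts in total. The libraries were poly(A)-selected RNA-seq of spleen from BXSB mice with the genotype BXSB.Cg-Cd8atm1Mak Il15tm1Imx Yaa, called Yaa DKO, which every group shared. Yaa is an autoimmunity-accelerating translocation to the Y chromosome, and the other alleles are targeted mutations of Cd8a and Il15. The 3 groups had 4 libraries each: untreated spleens at 6 weeks (replicates 1 to 4), untreated 10-week spleens (replicates 5 to 8) and spleens at 10 weeks from mice whose drinking water held 6 g/L of 2DG (2-deoxyglucose, an inhibitor of glycolysis) (replicates 9 to 12). The design names the younger mice pre-symptomatic and the older ones symptomatic. The labels do not state that each library came from a separate mouse, so p-values cover the spread among the libraries at hand, part of which may be technical.

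A kappa light chain is made in a developing B cell when 1 Igkv segment is joined by RAG recombination to 1 of the Igkj segments upstream of the constant region Igkc. A mature B cell and its descendants therefore mostly express a single Igkv gene, and the shares of Igkv transcripts in a spleen follow which cells are there and how much light chain RNA each makes. Plasma cells, the antibody-secreting end stage, hold far more of this RNA than resting B cells. In bulk samples, fewer cells of a type and less RNA per cell cannot be told apart.

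The 100 genes lie on chromosome 6 between 67555497 and 70704177 (GRCm38, GENCODE M21), upstream of Igkj1 at 70722562 and of Igkc (ENSMUSG00000076609.2) at 70726435 to 70726966. On the strand of Igkc there are 38 of them, and 62 are on the other strand, where joining takes place by inversion. Each has 2 coding exons, the second of which holds the variable domain. They belong to 20 families, named by the first number of the symbol, of which family 4 is the largest with 26 genes. Members of 1 family shared a median of 88.1% of the bases of the variable exon (lowest 73.2%), and genes of different families a median of 63.8%. At least 95% identity to another member was found for 45 genes, so reads shared between them make the split between such genes uncertain.

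The following stretches are shown because the share of these 5 genes among all Igkv counts differed between 2DG and untreated 10-week spleens, as described further on. They are the last 240 bases of the germline segment in the variable exon, 5′ to 3′, from the GENCODE M21 transcripts. Capitals run from the codon of the second conserved cysteine to the end of the segment. After that codon they hold the germline part of the third complementarity-determining region, which contacts antigen. They lie at chr6:70171809-70172048, reverse strand (Igkv8-27), chr6:67725422-67725661, forward strand (Igkv1-133), chr6:68037079-68037318, forward strand (Igkv17-121), chr6:70074024-70074263, reverse strand (Igkv6-32) and chr6:68930269-68930508, reverse strand (Igkv13-85).
Igkv8-27: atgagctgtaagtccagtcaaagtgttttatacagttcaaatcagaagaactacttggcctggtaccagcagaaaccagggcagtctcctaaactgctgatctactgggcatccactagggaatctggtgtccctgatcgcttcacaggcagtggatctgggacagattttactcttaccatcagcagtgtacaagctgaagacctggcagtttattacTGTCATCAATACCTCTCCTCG
Igkv1-133: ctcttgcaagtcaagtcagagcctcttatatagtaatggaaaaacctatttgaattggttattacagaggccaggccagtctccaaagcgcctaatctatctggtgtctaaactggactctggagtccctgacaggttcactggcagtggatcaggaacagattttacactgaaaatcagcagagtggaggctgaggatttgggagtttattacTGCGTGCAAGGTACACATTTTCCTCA
Igkv17-121: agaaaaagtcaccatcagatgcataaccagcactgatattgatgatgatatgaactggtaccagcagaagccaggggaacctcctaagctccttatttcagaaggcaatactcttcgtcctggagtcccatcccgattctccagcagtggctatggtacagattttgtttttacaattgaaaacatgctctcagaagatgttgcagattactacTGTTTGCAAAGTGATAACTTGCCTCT
Igkv6-32: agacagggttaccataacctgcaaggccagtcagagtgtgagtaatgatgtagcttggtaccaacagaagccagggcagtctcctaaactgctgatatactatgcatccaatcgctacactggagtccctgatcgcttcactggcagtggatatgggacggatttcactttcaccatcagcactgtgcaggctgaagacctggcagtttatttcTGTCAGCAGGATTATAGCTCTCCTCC
Igkv13-85: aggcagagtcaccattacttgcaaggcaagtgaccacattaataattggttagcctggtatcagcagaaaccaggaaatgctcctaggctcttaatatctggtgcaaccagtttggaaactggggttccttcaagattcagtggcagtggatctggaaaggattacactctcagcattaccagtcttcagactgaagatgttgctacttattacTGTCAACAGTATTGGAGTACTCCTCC

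The last 60 bases of the 10 most used genes are shown in order of mean share, to let their germline ends be compared, with capitals as above. Those capitals span 26 bases in every gene printed here and above except Igkv8-27, with 21, and Igkv16-104, with 27. Igkv1-117 and Igkv1-110 were 96.8% identical over the variable exon, so reads shared between them make their split uncertain. The stretches lie at chr6:69900424-69900483, reverse strand (Igkv5-39), chr6:68631963-68632022, reverse strand (Igkv10-96), chr6:70699008-70699067, forward strand (Igkv3-2), chr6:68121768-68121827, forward strand (Igkv1-117), chr6:67896583-67896642, forward strand (Igkv14-126), chr6:68271208-68271267, forward strand (Igkv1-110), chr6:68256810-68256869, forward strand (Igkv14-111), chr6:70216858-70216917, reverse strand (Igkv8-24), chr6:68736297-68736356, reverse strand (Igkv19-93), chr6:68426013-68426072, forward strand (Igkv16-104).
Igkv5-39: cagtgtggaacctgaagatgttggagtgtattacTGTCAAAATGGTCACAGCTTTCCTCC
Igkv10-96: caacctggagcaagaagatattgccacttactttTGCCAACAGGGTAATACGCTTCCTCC
Igkv3-2: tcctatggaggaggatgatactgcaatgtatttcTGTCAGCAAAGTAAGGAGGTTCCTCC
Igkv1-117: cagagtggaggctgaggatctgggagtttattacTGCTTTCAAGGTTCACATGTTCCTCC
Igkv14-126: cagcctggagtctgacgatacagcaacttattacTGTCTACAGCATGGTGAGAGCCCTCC
Igkv1-110: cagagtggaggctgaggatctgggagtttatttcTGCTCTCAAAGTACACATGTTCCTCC
Igkv14-111: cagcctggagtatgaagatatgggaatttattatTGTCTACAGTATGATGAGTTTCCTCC
Igkv8-24: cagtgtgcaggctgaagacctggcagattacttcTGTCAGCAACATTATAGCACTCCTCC
Igkv19-93: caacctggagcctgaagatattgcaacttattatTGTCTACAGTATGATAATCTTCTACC
Igkv16-104: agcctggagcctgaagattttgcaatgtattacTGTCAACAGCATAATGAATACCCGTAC

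The libraries held 15596040 to 26079979 counts. Markers of mature B cells, T cells, macrophages and erythroid cells were all above 0 in sum, as the labelled spleen would hold, and no listed marker found in the table was at 0 over all libraries. Replicate 8 had the lowest Igkv total within the untreated 10-week group.

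Igkv transcripts were most abundant in untreated 10-week spleens and least abundant with 2DG. They made up 0.740%, 0.533%, 0.528% and 0.394% of all counts in the 6-week libraries. In untreated 10-week spleens the values were 1.66%, 1.55%, 1.38% and 0.742%, the last in replicate 8. With 2DG they were 0.451%, 0.263%, 0.282% and 0.395%. All 4 libraries with 2DG were below all 4 untreated libraries of that age, whereas 6-week and 2DG libraries overlapped. Replicate 8 differed from the highest 6-week library by less than counting error. Group means were 0.549% ± 0.143, 1.33% ± 0.410 and 0.348% ± 0.0902 (SD, n = 4). The 95% Clopper-Pearson interval of replicate 8 was 0.738% to 0.745%, and that of 6-week replicate 1 was 0.737% to 0.744% (intervals cover counting error only).

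**Figure D1:**
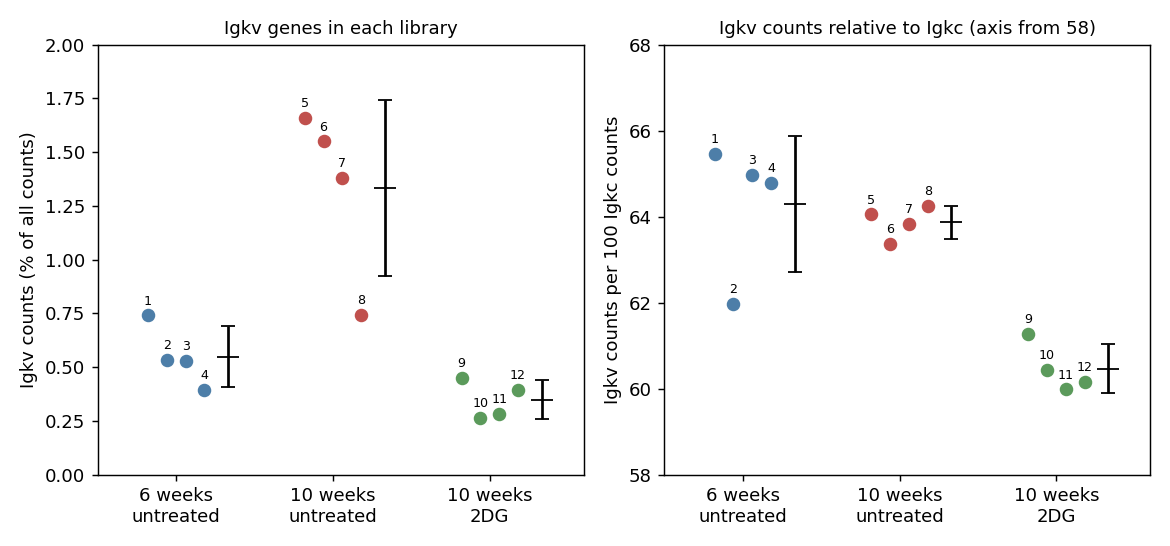
Igkv counts in each library as a percent of all counts (left) and per 100 counts of Igkc (right, axis from 58), with 1 numbered point per library and the group mean ± SD beside it. Replicate 8 sits at 0.742%, below the other untreated 10-week libraries, and the 2DG libraries sit between 59.98 and 61.3 Igkv counts per 100 Igkc counts, below all others.

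The total moved with Igkc, the constant region of the same transcripts. The Igkc level averaged 8355 ± 2241 CPM in 6-week, 21995 ± 7237 CPM in untreated 10-week and 5647 ± 1446 CPM in 2DG libraries (CPM are counts scaled to the effective library size; SD, n = 4). Relative to 100 Igkc counts there were 65.5, 62.0, 65.0 and 64.8 Igkv counts at 6 weeks and 64.1, 63.4, 63.8 and 64.2 in untreated 10-week spleens. With 2DG the ratios were 61.3, 60.4, 59.98 and 60.2. These were the 4 lowest of the 12, with no overlap with either untreated group. The ratio carries no test, as a summary over members.

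Many Igkv genes were used in every spleen, and which gene led differed from library to library. A count in all 12 libraries was found for 97 of the 100 genes. By mean share over the libraries, 14 genes made up the first 50% of Igkv counts, the 10 most used made up 41.3%, and 20 genes each had under 0.1%. The effective number of genes, the exponential of the Shannon entropy of the shares, was 43.1 ± 4.03 at 6 weeks, 46.9 ± 6.45 in untreated 10-week spleens and 45.6 ± 3.06 with 2DG (SD, n = 4), and the groups overlapped. The most used gene of a library took 10.2% ± 1.35, 8.98% ± 2.09 and 10.1% ± 1.25 of Igkv counts in the same order. It was 1 of 8 different genes over the 12 libraries.

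Igkv5-39 had the highest mean share, 6.01%. Its shares were 7.99%, 6.83%, 6.28% and 8.72% at 6 weeks, 2.47%, 4.22%, 2.54% and 7.41% in untreated 10-week spleens, and 5.01%, 6.11%, 10.9% and 3.57% with 2DG. It led in replicates 4, 8 and 11, and the groups overlapped. Igkv10-96, next with 5.74%, held 5.09%, 8.49%, 8.65% and 5.18% at 6 weeks, 4.24%, 8.19%, 7.70% and 6.05% in untreated 10-week spleens, and 3.07%, 4.67%, 4.08% and 3.496% with 2DG. Its 2DG shares were below every 6-week share and overlapped the untreated 10-week shares only through replicate 5. Igkv3-2 had a lowest and highest share of 1.78% and 10.7% among 6-week libraries, 2.15% and 8.81% among untreated 10-week libraries, and 1.44% and 8.29% among 2DG libraries, so its groups overlapped widely.

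Several genes were high in 1 library only. Igkv16-104, the only member of family 16, took 11.8% of Igkv counts in 6-week replicate 1 (95% Clopper-Pearson interval 11.6% to 12.0%) and 0.979% to 2.97% in the other libraries. Igkv8-21 took 9.49% in 6-week replicate 2 and at most 1.36% elsewhere. Igkv4-63 reached 7.31% in untreated replicate 8 against at most 1.30% elsewhere. Igkv6-29 was the most uneven by ratio, at 0.436% in untreated replicate 7 and at most 0.0149% elsewhere, a 29.2-fold gap, and it is 98.3% identical to Igkv6-20. In all, 14 members had a highest share at least 3 times their next highest, and 23 had a highest share at least 5 times their own median; these single-library genes were singled out after their values were seen.

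**Figure D2:**
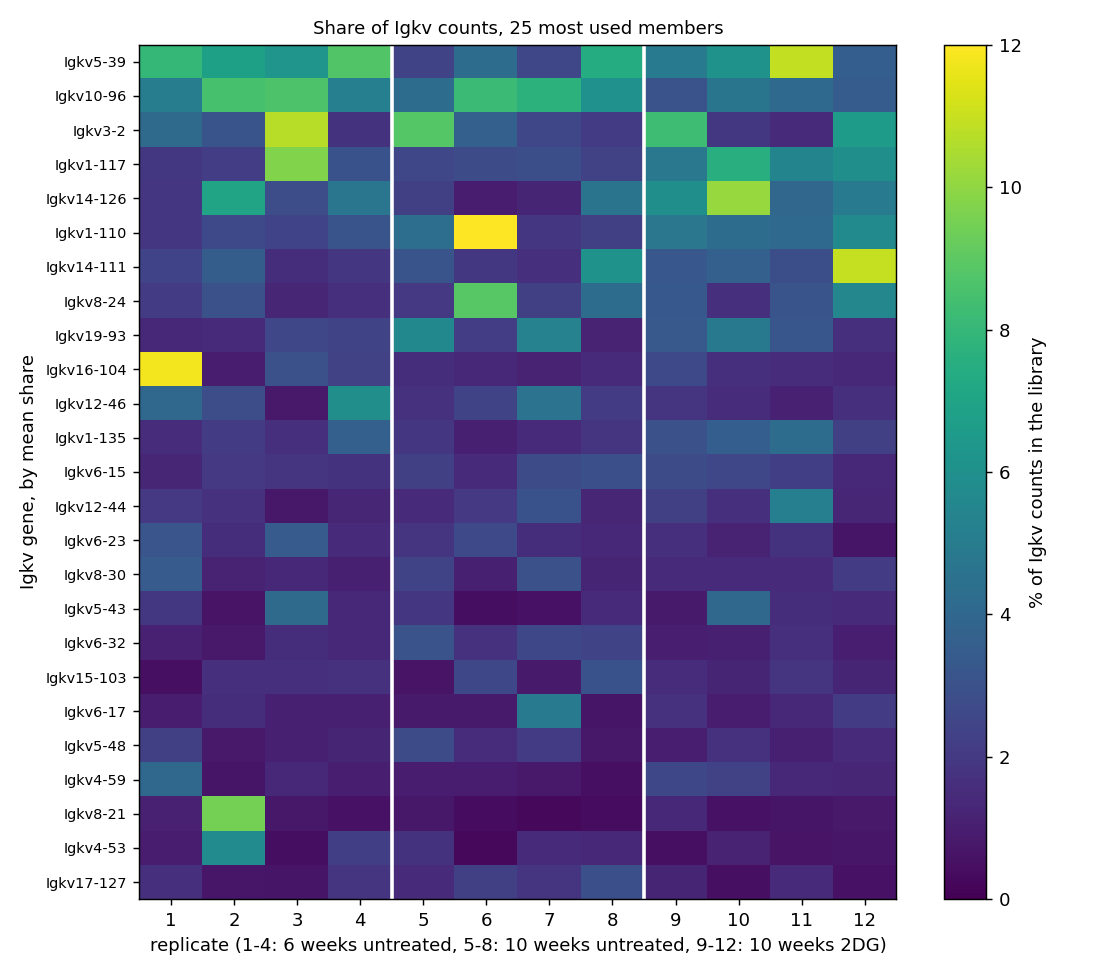
Percent of Igkv counts taken by each of the 25 most used members (rows, by mean share) in each of the 12 libraries (columns, white lines between groups). Single bright cells mark genes high in 1 library, such as Igkv16-104 at 11.8% in replicate 1.

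The spread between libraries was far wider over the Igkv genes than over other genes from the middle of the Igkv level range. The median coefficient of variation of CPM was 58.9% at 6 weeks, 64.2% in untreated 10-week spleens and 49.3% with 2DG. It was taken over all members, also those outside that middle range. For 7384 other genes between 11.8 and 98.6 CPM, the quartiles of the members' mean CPM, it was 6.90%, 11.4% and 6.33%. Dividing by the Igkv total left most of that spread, with medians of 52.6%, 55.5% and 40.2% for the shares. The widest 95% half-interval of any share was 0.244 percentage points, for Igkv5-39 in 2DG replicate 11. This is an absolute width, and it does not bound the relative counting error of genes with few counts.

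Repertoires of 2 libraries overlapped, as the sum of the smaller share of each gene, by 63.1% to 68.9% among 6-week spleens, by 63.3% to 73.7% among untreated 10-week spleens and by 72.3% to 79.4% among 2DG spleens, each over 6 pairs. Between untreated and 2DG spleens at 10 weeks the overlap was 59.0% to 75.5% over 16 pairs. The pairs share libraries and carry no test.

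By family, 9 families made up most of the repertoire in every group, led by family 4 with a mean share of 14.7% and family 1 with 12.2%. Families 8, 5, 3, 14 and 6 followed between 9.55% and 8.63%, then family 10 with 6.84% and family 12 with 6.59%. Family 4, with 26 genes, held 14.0%, 16.9%, 10.1% and 17.4% at 6 weeks, 14.9%, 10.6%, 15.9% and 23.6% in untreated 10-week spleens, and 14.0%, 13.0%, 13.0% and 12.5% with 2DG. Family 1 held 6.47%, 8.28%, 14.6% and 11.2% at 6 weeks, 10.0%, 20.4%, 7.00% and 6.93% in untreated 10-week spleens, and 14.0%, 16.4%, 16.2% and 15.1% with 2DG. Both families varied less among 2DG libraries than among untreated libraries, and their groups overlapped.

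**Figure D3:**
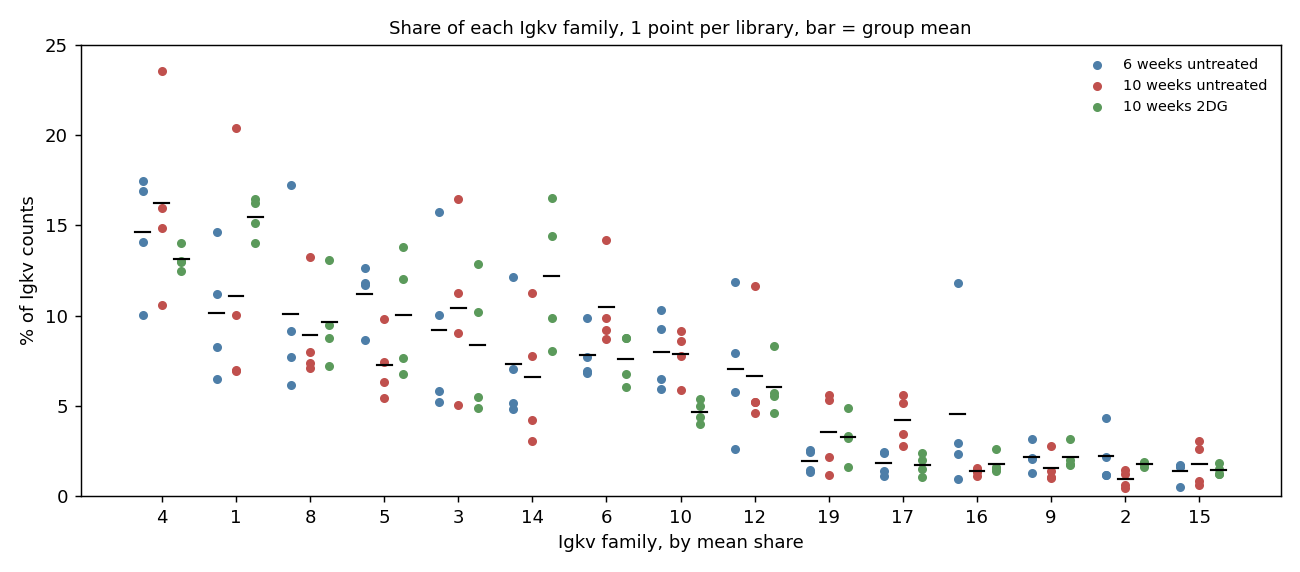
Percent of Igkv counts of the 15 most used Igkv families (horizontal axis, by mean share), with 1 point per library, a colour per group and a bar at the group mean. Families 10 and 17 are lower with 2DG than in untreated 10-week spleens, at means of 4.68% against 7.85% and 1.73% against 4.25%.

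Age was compared first, 10 against 6 weeks without treatment. No Igkv gene passed: 0 of 97 tested members had an adjusted p under 0.05 by edgeR, against 0.00539% of all genes tested. Positive changes were found for 89 members and negative ones for 8, with a median log2 change of 1.45 against 0.01 over all genes. At an unadjusted p under 0.05 there were 52 members, where all genes gave 17.1%. All 4 libraries at 10 weeks were above all 4 at 6 weeks for 24 members, against 3.64% of genes. DESeq2 called 30 members, all higher, against 1.86% of genes in either direction and 1.28% higher. The voom fit with quality weights called 5, all higher, against 0.0971% and 0.0701%. Without replicate 8 edgeR called 27 members, all higher, where 8.33% of genes passed in either direction and 4.57% were higher. The count of members called thus varied with the method and with that library.

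Igkv6-32 had the smallest p with age. Its level was 80.4, 41.8, 80.9 and 52.2 CPM in the 6-week libraries and 550.1, 272.9, 388.5 and 183.6 CPM in the untreated 10-week libraries, which did not overlap (log2 change 2.45, SE 0.35, edgeR adjusted p = 0.0744). Igkv17-121 followed, at 59.6, 20.1, 35.4 and 22.8 CPM and then at 235.7, 460.0, 248.1 and 197.2 CPM, again without overlap (log2 change 3.05, SE 0.44, edgeR adjusted p = 0.0744). Neither passed the threshold. As a share of Igkv counts, no member passed with age (0 of 97 by edgeR, against 0.00539% of rows in that fit). An unadjusted p under 0.05 was found for 21 of 97 members and for 3148 of all 18542 rows. Without replicate 8, the shares of Igkv13-85, Igkv17-121 and Igkv6-32 were higher at 10 weeks, with log2 changes of 1.63, 1.65 and 1.03 (edgeR adjusted p = 0.0135, 0.0155 and 0.046), 3 of 97 members where 8.02% of rows in that fit were called and 4.35% were higher, so that the members' proportion was not above the background. None of the 19 tested families passed with age, against 0.00542% of rows (14 at an unadjusted p under 0.05, where 3145 of 18464 rows were). Without replicate 8, 7 passed, where 8.21% of rows were called. No family share passed either (0 of 19, 6 at an unadjusted p under 0.05, where 3138 of 18464 rows were).

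The second comparison set 2DG against untreated 10-week spleens. Igkv genes were lower with 2DG across the locus: 32 of 97 tested members fell and 0 rose (edgeR), against 7.42% of all genes called in either direction and 5.26% called lower. By family, 9 of 26 tested members of family 4 fell, 6 of 9 of family 6 and 4 of 9 of family 3, but 0 of 10 of family 8 and 0 of 8 of family 1. Negative changes were found for 96 members, with a median log2 change of -2.11 against 0.01 over all genes. An unadjusted p under 0.05 was found for 71 members, where all genes gave 24.5%. For 36 members all 2DG libraries were below all untreated ones, against 7.91% of genes. DESeq2 called 62 members, all lower, against 6.29% of genes in either direction and 3.94% lower, and voom with quality weights 39, all lower, against 7.16% and 5.21%. The count of 32 became 54 without untreated replicate 8, where 11.8% of genes were called and 7.72% were lower. It became 15 without untreated replicate 5, where 3.84% of genes were called. Without 2DG replicates 10, 11 and 12 it became 9, 10 and 18, where 2.75%, 2.74% and 6.59% of genes were called in that order.

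**Figure D4:**
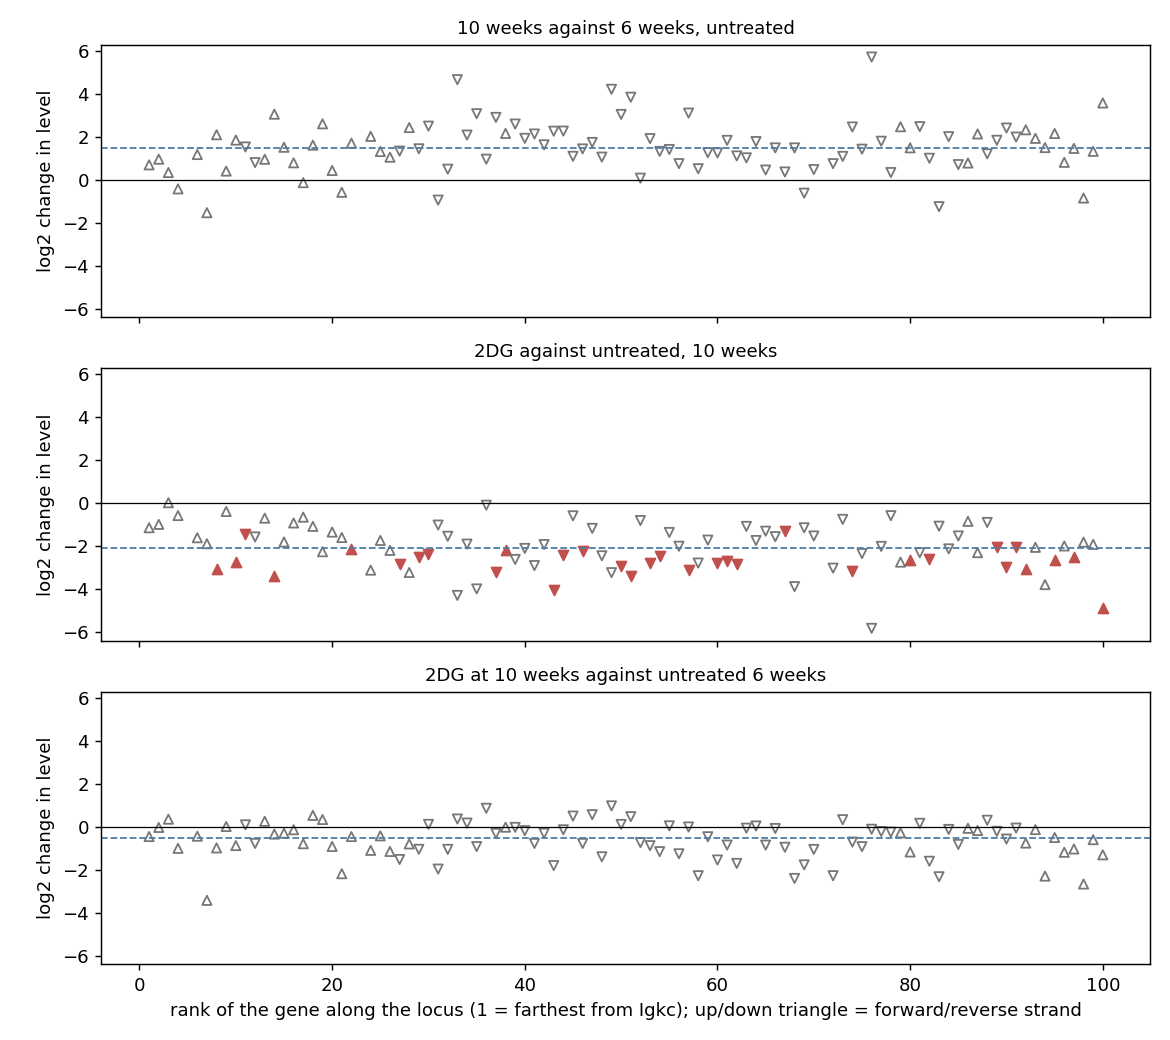
Log2 change in level of each tested Igkv gene against its rank along the locus (1 is farthest from Igkc), in 3 comparisons, with filled red marks for an edgeR adjusted p under 0.05, upward and downward triangles for the forward and reverse strand, and a dashed line at the median of the members. In the middle panel 32 genes are filled, all below 0 and from both strands, and in the other panels none is.

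Igkv6-32 had the smallest p of all members. It stood at 550.1, 272.9, 388.5 and 183.6 CPM in untreated spleens and at 45.0, 27.6, 43.7 and 39.1 CPM with 2DG (log2 change -3.17, SE 0.36, edgeR adjusted p = 0.00176). Every 2DG library was far below the lowest untreated one. Igkv10-96, among the most used genes, stood at 759.4, 1309, 1143 and 448.1 CPM and then at 138.2, 122.5, 111.8 and 133.1 CPM (log2 change -2.86, SE 0.35, edgeR adjusted p = 0.00198). Here too the groups did not overlap.

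Family 17 fell in both of its members, whose variable exons are 98.0% identical. Igkv17-121 went from 235.7, 460.0, 248.1 and 197.2 CPM to 33.6, 14.9, 25.6 and 34.6 CPM (log2 change -3.39, SE 0.44, edgeR adjusted p = 0.00275). Igkv17-127 went from 261.7, 365.0, 265.1 and 216.8 CPM to 56.3, 13.5, 39.2 and 22.3 CPM (log2 change -3.08, SE 0.52, edgeR adjusted p = 0.00859). Neither gene overlapped between the groups, and their summed counts are free of the split between them. Both members of family 13 fell as well. Igkv13-85 went from 44.6, 58.3, 75.6 and 20.6 CPM to 7.62, 3.64, 5.72 and 4.51 CPM (log2 change -3.21, SE 0.46, edgeR adjusted p = 0.00365), and Igkv13-84 by a log2 change of -2.17 (SE 0.47, edgeR adjusted p = 0.0215).

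Igkv3-1 had the largest fall by the naming rule, from 192.9, 102.5, 469.6 and 16.2 CPM to 9.13, 2.60, 2.34 and 12.5 CPM. Replicate 8 came close to the 2DG libraries there, and the log2 change of -4.88 had an SE of 1.05 (edgeR adjusted p = 0.0233). Igkv4-61 went from 73.1, 179.2, 51.3 and 348.0 CPM to 29.6, 4.86, 10.1 and 18.4 CPM (log2 change -3.37, SE 0.77, edgeR adjusted p = 0.0286). Other falls were those of Igkv12-46, Igkv6-15, Igkv5-39 and Igkv19-93, with log2 changes of -2.81, -2.05, -1.32 and -2.38. The last of these had an edgeR adjusted p of 0.047 and an untreated range of 89.1 to 1004 CPM that overlapped the 2DG range of 62.7 to 150.4 CPM. Calls of Igkv3-1, Igkv4-61, Igkv12-46 and Igkv13-84 were lost in 5 of 19 alternative fits each, that of Igkv5-39 in 2 and that of Igkv19-93 in 13.

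Not all abundant genes passed. Of the 10 most used, Igkv10-96, Igkv5-39 and Igkv19-93 fell and 7 did not pass. Igkv1-110 stood at 778.7, 1914, 284.2 and 166.8 CPM in untreated spleens and at 213.8, 111.8, 112.1 and 217.6 CPM with 2DG (log2 change -2.26, SE 0.66, edgeR adjusted p = 0.0683). Its untreated levels spread widely and overlapped the 2DG levels through replicate 8, the lowest untreated library in this gene. Without that library Igkv1-110 passed (log2 change -2.60, SE 0.55, edgeR adjusted p = 0.0171), but it was called in only 3 of 19 alternative fits. Igkv14-126 stood at 410.2, 153.1, 185.6 and 341.7 CPM and then at 270.1, 266.5, 109.0 and 187.0 CPM, with overlap (log2 change -0.39, SE 0.44, edgeR adjusted p = 0.642). Igkv1-117 stood at 459.2, 435.1, 431.3 and 174.1 CPM and then at 215.8, 198.8, 148.7 and 227.6 CPM (log2 change -0.92, SE 0.51, edgeR adjusted p = 0.305), with overlap through replicate 8, without which it did not pass either (log2 change -1.17, SE 0.51, edgeR adjusted p = 0.177).

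Summed by family, 10 of 19 tested families fell with 2DG and none rose, against 7.35% of rows called in either direction and 5.19% called lower. They were families 4, 5, 6, 10, 11, 12, 13, 15, 17 and 19. Family 10 fell most clearly, from 1049, 1462, 1278 and 576.9 CPM to 179.1, 141.1, 136.5 and 166.2 CPM (log2 change -2.81, SE 0.30, edgeR adjusted p = 0.00162). Family 4 had a log2 change of -2.23 (SE 0.27, edgeR adjusted p = 0.00162). Family 1, of which the untreated libraries ranged from 513.4 to 3261 CPM and the 2DG libraries from 431.1 to 632.1 CPM, did not pass (log2 change -1.67, SE 0.47, edgeR adjusted p = 0.0595). It passed in 1 of 13 alternative fits, the one without replicate 8, its lowest untreated library (log2 change -1.97, SE 0.36, edgeR adjusted p = 0.00791). Family 14 stood at 1387, 489.2, 628.8 and 835.0 CPM and with 2DG at 444.9, 377.3, 220.5 and 627.8 CPM, with overlap (log2 change -1.001, SE 0.42, edgeR adjusted p = 0.18). Without untreated replicate 8, 14 families were called, where 11.6% of rows were. Without 2DG replicate 10 or replicate 11, 6 families were called, where 2.90% and 2.87% of rows were.

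The share of each gene among Igkv counts asks which genes moved differently from the total. Of 97 members, 5 passed with 2DG against untreated 10-week spleens (edgeR, with the Igkv total as offset), against 7.17% of all rows in that fit, so the number called was no higher than the background. Of these, 2 rose, where 2.1% of rows did, and 3 fell, where 5.07% did. Igkv8-27 took 0.762%, 0.533%, 0.708% and 0.688% of Igkv counts in untreated spleens and 1.41%, 1.97%, 2.00% and 2.16% with 2DG. The groups did not overlap, and the share rose by a log2 change of 1.48 (SE 0.27, edgeR adjusted p = 0.0102). In level, Igkv8-27 stood at 94.4 ± 35.9 and 63.0 ± 13.8 CPM (SD, n = 4) and did not pass (edgeR adjusted p = 0.281).

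Igkv1-133 took 0.0487%, 0.0165%, 0.0717% and 0.0564% in untreated spleens and 0.236%, 0.152%, 0.131% and 0.218% with 2DG, without overlap (log2 change in share 1.95, SE 0.39, edgeR adjusted p = 0.0145). It was the 1 member with a positive change in level, of 0.02 (SE 0.47, edgeR adjusted p = 0.986), a sign that changed in 5 of 19 alternative fits, and is 96.5% identical to Igkv1-135. Both of these rises in share held in all 14 alternative fits.

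Igkv1-135, the close relative of Igkv1-133, took 1.89%, 1.05%, 1.43% and 1.79% in untreated spleens and 2.97%, 3.57%, 4.24% and 2.27% with 2DG, without overlap (log2 change in share 1.08, SE 0.31, edgeR adjusted p = 0.0607). It did not pass. Igkv4-86 took 0.306%, 0.611%, 0.186% and 0.467% and then 1.38%, 1.54%, 1.59% and 1.44%, again without overlap and without passing (log2 change in share 1.92, SE 0.56, edgeR adjusted p = 0.0683).

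The shares of 3 members fell. Igkv17-121 went from 1.32%, 2.88%, 1.67% and 2.66% to 0.744%, 0.568%, 0.935% and 0.908% (log2 change in share -1.43, SE 0.29, edgeR adjusted p = 0.0168). Igkv6-32 went from 3.07%, 1.71%, 2.62% and 2.48% to 0.999%, 1.05%, 1.59% and 1.03% (log2 change in share -1.08, SE 0.24, edgeR adjusted p = 0.0223). For both genes, every 2DG library was below every untreated one. Igkv13-85 went from 0.249%, 0.365%, 0.509% and 0.279% to 0.169%, 0.139%, 0.209% and 0.118% (log2 change in share -1.15, SE 0.29, edgeR adjusted p = 0.0348), also without overlap. The calls were lost in 1, 4 and 6 of 14 alternatives in that order, among them for each gene the fit without 2DG replicate 10. Igkv13-85 and Igkv13-84 are at least 95% identical, so the split of reads between them is uncertain. The Igkv13-84 share overlapped, at 0.264% to 0.375% in untreated 10-week spleens and 0.168% to 0.388% with 2DG. Summed over both, which is free of that split, the family 13 share did not pass (log2 change in share -0.57, SE 0.20, edgeR adjusted p = 0.107). The part of the split in the fall of Igkv13-85 was not tested.

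**Figure D5:**
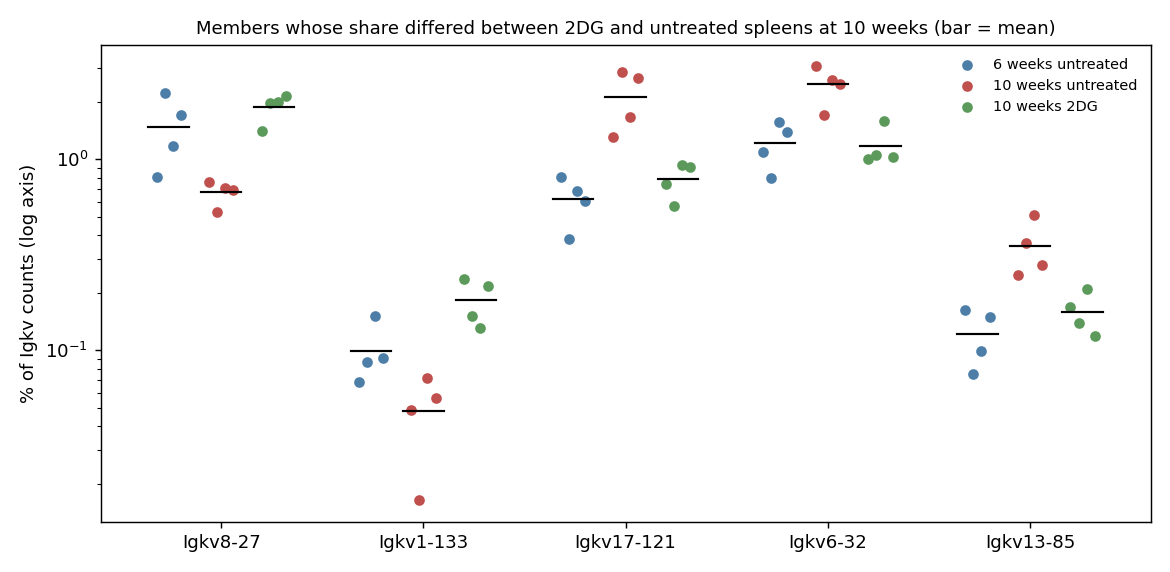
Percent of Igkv counts, on a log axis, of the 5 members whose share passed between 2DG and untreated 10-week spleens, with 1 point per library and a bar at each group mean. In each gene the green points of 2DG do not overlap the red points of untreated 10-week spleens, whereas they overlap the blue points of 6-week spleens in Igkv8-27, Igkv1-133, Igkv17-121, Igkv6-32 and Igkv13-85.

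Between families, the shares of family 10 and family 17 fell with 2DG among 19 tested, where 7.26% of rows in that fit were called and 5.12% fell. Family 10 went from 5.86%, 9.15%, 8.61% and 7.79% to 3.97%, 5.38%, 4.99% and 4.37% (log2 change in share -0.75, SE 0.19, edgeR adjusted p = 0.0341). Family 17 went from 2.78%, 5.16%, 3.46% and 5.59% to 1.99%, 1.08%, 2.37% and 1.49% (log2 change in share -1.29, SE 0.34, edgeR adjusted p = 0.0441). Neither family overlapped between the groups.

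The last comparison, of 2DG at 10 weeks with untreated 6-week spleens, uses libraries that the other comparisons use as well. By edgeR 0 of 97 members passed, where 0.129% of all genes did, with 15 at an unadjusted p under 0.05 (16.9% of all genes). The median log2 change was -0.51, with 77 members negative and 20 positive. All 2DG libraries were below all 6-week libraries for 7 members, against 7.69% of genes. Igkv10-96 stood at 375.0, 442.6, 445.8 and 195.0 CPM at 6 weeks, above each of its 2DG values (log2 change -1.53, SE 0.33, edgeR adjusted p = 0.0865). It was called by DESeq2, which called 5 members (Igkv10-96, Igkv9-129, Igkv5-39, Igkv3-3 and Igkv4-53, all lower) against 2.46% of genes in either direction and 0.983% lower. The voom fit with quality weights called 4 (Igkv10-96, Igkv5-37 and Igkv5-39 lower, Igkv4-86 higher) against 8.98% of genes. Igkv4-53 and Igkv5-37 were named after their values were seen. No share passed by edgeR (0.129% of rows called), with 8 at an unadjusted p under 0.05, where 3125 of 18542 rows were. No family passed (0.135% of rows called), with 4 at an unadjusted p under 0.05, where 3135 of 18464 rows were. No family share passed, with 2 at an unadjusted p under 0.05, where 3132 of 18464 rows were.

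Position in the locus was described without a test. Genes on the strand of Igkc held 40.9% ± 6.04 of Igkv counts at 6 weeks, 40.1% ± 4.36 in untreated 10-week spleens and 47.2% ± 4.83 with 2DG (SD, n = 4). The 34 genes farthest from Igkc held 41.5% ± 2.07, 40.3% ± 2.13 and 46.2% ± 4.07. Untreated 10-week and 2DG libraries overlapped on the strand of Igkc, at 36.6% to 45.8% and 40.6% to 52.1%. They overlapped in the far part too, at 38.0% to 43.1% and 42.9% to 51.4%. With 2DG against untreated 10-week spleens, 8 of 32 tested genes fell in that far part, 14 of 33 in the middle and 10 of 32 near Igkc. Over all genes tested, 5.26% were called lower.

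Other antibody genes and cell markers moved alongside. With 2DG against untreated 10-week spleens, Igkc and all 5 Igkj segments fell, 6 of 6, with Igkc at a log2 change of -1.96 (SE 0.29, edgeR adjusted p = 0.00384). Of 99 tested Ighv heavy chain variable genes 41 fell, with a median of -2.20. Among 6 lambda light chain genes 3 fell, led by Iglv1 with a log2 change of -1.91 (edgeR adjusted p = 0.00675). Of 9 heavy chain constant and J chain genes 4 fell: Ighg2b, Ighg2c, Ighg3 and Jchain. The shares of kappa and heavy variable genes called lower were above the background of 5.26% of all genes.

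Plasma cell markers fell in 11 of 14 tested genes, with a median log2 change of -1.28, among them Xbp1 (-1.46), a factor of the secretory programme, and Prdm1 (-1.47), which encodes Blimp-1. Their summed level was 1032 to 1576 CPM at 6 weeks, 1557 to 2292 CPM in untreated 10-week spleens and 797.7 to 919.8 CPM with 2DG. None of the 16 mature B cell genes passed, and they summed to 6971 to 8331, 4520 to 8504 and 7177 to 7994 CPM. Of 5 recombination and hypermutation genes tested none passed, and Rag1, a subunit of the recombinase, was at 0 in an untreated 10-week library and reached 23.4 CPM in that group. Erythroid genes summed to 5821 to 8833 CPM at 6 weeks, 2140 to 17381 CPM in untreated 10-week spleens and 10744 to 22577 CPM with 2DG, with 1 of 9 higher. Of 8 macrophage and monocyte genes 2 fell, of 10 germinal centre genes Efnb1 rose, and no gene of 9 T cell or 9 neutrophil genes passed. Over all genes tested with 2DG against untreated 10-week spleens, 7.42% were called in either direction and 5.26% lower, and 401 of 18542 were higher. The part of these cell types in the Igkv levels was not tested.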

How the data were processed

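RNA-seq of 12 spleen libraries was analysed in 3 groups of 4. The deposited table holds whole-number counts per Ensembl gene, not normalized. The submitters' processing notes name Bowtie2 2.2.0, RSEM 1.2.12 and GRCm38 without their roles, and the labels' protocols name poly(A) selection with TruSeq v2, which does not mark strand. The sources used here do not say how reads shared by similar genes were counted. Genes were matched to GENCODE M21, from which coordinates and sequences come.

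Counts of the whole table were fitted with edgeR 4.0.16 (quasi-likelihood test, robust, TMM, filterByExpr, all 12 libraries in 1 fit), with Benjamini-Hochberg adjustment over 18542 genes and a threshold of 0.05. The filter kept 97 of 100 members and dropped Igkv1-131, Igkv20-101-2 and Igkv1-35, with 25, 111 and 23 counts. SE is the log2 change divided by the square root of F. CPM use the library size after the filter times the TMM factor, as in the fit. Shares were fitted with the log Igkv total as offset of the Igkv rows, and families as rows of summed counts. DESeq2 1.42.0 and limma 3.58.1 (voom) were alternatives, beside other scalings, filters, offsets and leaving out each library in turn. Fits were also run on simulated counts, with share changes set only in the most counted members, and no result here rests on that run.

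Named genes were the 10 most used members, the 6 largest rises and falls among called, non-overlapping members whose average log2 CPM reached 2, the 3 smallest share p-values in each direction, and the most used gene of each family of at least 3. The members, lists and rules were chosen with earlier results of these data known. Intervals of shares are 95% Clopper-Pearson. Replicates of a group differed by more than sampling noise, with chi-square per degree of freedom of 10.5 to 85.2. The 60 Igkv pseudogenes, with 4497 counts, were left out.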

Additional observations from a re-analysis of the deposited data

Results flagged for a closer look

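The share of Igkv counts of some named members was set apart in 1 library of its group by Dixon's criterion for groups of 4. Chance flags about 1 in 20 such groups where values are normally distributed. That was not checked for these shares, so no excess over chance is read from the counts that follow. Of 99 groups looked at 8 were set apart, and over all members 42 of 300, or 14.0%.

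At 6 weeks, Igkv1-117 took 9.74% in replicate 3 against 1.95% to 3.00% in the others, Igkv2-109 took 4.09% in replicate 4 against 0.917% to 1.24%, and Igkv3-3 took 0.280% in replicate 4 against 0.0288% to 0.0625%. Igkv4-61 took 0.305% in 6-week replicate 1 against 0.153% to 0.176%. In untreated 10-week spleens, Igkv13-84 took 0.375% in replicate 5 against 0.264% to 0.280%, and Igkv3-3 took 0.0303% in replicate 6 against 0.0115% to 0.0134%. With 2DG, Igkv14-111 took 10.95% in replicate 12 against 2.88% to 3.70%, and Igkv6-32 took 1.59% in replicate 11 against 0.999% to 1.05%. Leaving out replicate 11 kept the fall in share of Igkv6-32, at a log2 change of -1.27 (edgeR adjusted p = 0.0241).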

How the results depend on the processing

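None of the called members named in the report reversed its direction under the alternatives. Of 12 printed changes in gene level, gene share or family level that did not pass, only the level of Igkv1-133 with 2DG changed sign. Family shares were fitted once, with no alternative. With age, the count of members called was 0 by edgeR, 30 by DESeq2, 5 by voom with quality weights (Igkv17-121, Igkv6-32, Igkv13-85, Igkv4-72 and Igkv6-15), and 2 with no filter on low counts (Igkv17-121 and Igkv6-32), all higher, the last where 0.279% of genes were called. With 2DG against untreated 10-week spleens, 32 became 62 by DESeq2, 16 with no filter (3.13% of genes called) and 20 with the compared groups only (3.21%), all lower. With 2DG against 6 weeks, 0 became 5 by DESeq2, 4 by voom and 1 (Igkv10-96) with the compared groups only (7.54%). The cause was not tested. Leaving out 1 library gave 0 to 27, 9 to 54 and 0 to 0 members called in the 3 comparisons. For shares it gave 0 to 3, 2 to 8 and 0 to 1, the 5 calls with 2DG against untreated spleens becoming 8 without untreated replicate 8 (11.4% of rows called), 3 without 2DG replicate 9 (4.91%) or 12 (6.46%) and 2 without 2DG replicate 10 (2.68%). Igkv1-117 was called against 6 weeks without 6-week replicate 3 (0.0371%). For families, leaving out 1 library gave 0 to 7, 6 to 14 and 0 to 1. Family 10 was called lower with 2DG than at 6 weeks without untreated 10-week replicate 6, 7 or 8, libraries of neither compared group. In those fits 2.16%, 2.02% and 0.187% of rows were called, in that order. Library sizes without immunoglobulin genes and median-of-ratios factors left 32 calls. For named genes, 252 repeats kept direction and side of the threshold and 46 kept direction but lost the call. The mean Igkv share of all counts with 1 library left out ranged over 0.485% to 0.600%, 1.22% to 1.53% and 0.313% to 0.376%. The effective number of genes ranged over 41.3 to 44.2, 45.0 to 49.3 and 44.4 to 46.5, and the share of the leading gene over 9.64% to 10.7%, 7.98% to 9.50% and 9.79% to 10.7%. No paired analysis was possible because replicate numbers run from 1 to 12 over the groups and no 2 groups share one.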
